A study of Helicoverpa armigera with 6 samples.

Results

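The genes described here are the abundant annotated genes of *H. armigera* larvae whose deposited level stayed nearly the same in every library, with or without knockdown of *HDAC3*. They were chosen by 2 limits on FPKM, which is the number of sequenced fragments scaled to the length of the gene and to the library. The mean over the 6 libraries had to be at least 100 FPKM, and the highest of the 6 values had to be under 1.5 times the lowest. Of the 17082 annotated genes in a table of 18203 rows, 952 reached the mean and 63 met both limits. These 63 are called steady genes here. Their small spread, also between siHDAC3 and siNC larvae, is what they were chosen for, so their levels and changes are a description and carry no test.

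The steady genes were compared in 3 libraries from siHDAC3 larvae and 3 from siNC larvae. siHDAC3 is a small interfering RNA against *HDAC3*, the sequence named siRNA-5, and siNC is one against a *C. elegans* gene that serves as the control. Both were injected into newly molted final-instar larvae, and the RNA came from whole insects. The sources used here give neither the time from injection to RNA extraction nor the number of larvae behind each library. They also do not say whether the libraries of a group came from separate larvae. The strain was not given in them, and all groups share the injection. In RNA from whole larvae, fewer cells of a type and less RNA per cell cannot be told apart. The columns of the table are named CK and siHA5 and were read as siNC and siHDAC3, which are the 2 groups of the series. Identifiers stand in the table without gene names, and none of the 63 matched the reference gene table, so the genes are given by identifier, without the locus tag prefix, and without roles. *HDAC3* itself was not matched either, and its knockdown was not checked in these libraries.

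HDAC3 removes acetyl groups from histones within a corepressor complex, which generally lowers transcription of nearby genes. In most animals, a core of genes for protein synthesis, the cytoskeleton and energy metabolism is expressed at high and rather even levels in many tissues, and such genes are often used as an internal reference for RT-qPCR. A level measured by RNA-seq is always relative to the other RNA of the same library. Whether a gene is called steady therefore depends on how the libraries were brought to a common scale.

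The libraries held from 10084667 to 10811323 fragments on genes in siHDAC3 and from 11565408 to 12389053 in siNC. Each steady gene was covered by at least 248 fragments in every library, with a median of 2649.5 over genes and libraries and a highest value of 60484. Counting error alone gives these genes a coefficient of variation between 0.501% and 5.09%. The observed coefficient of variation over the 6 libraries ranged from 5.88% to 16.8%, with quartiles of 10.4% and 14.2%. It was above the counting error in every steady gene, by 1.42 to 27.6 times. Within siHDAC3 the median coefficient of variation was 9.87%, and within siNC it was 9.68%.

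The steady genes ranged from 100.3 to 1975 FPKM in their mean, with a median of 263.4. The most abundant was HaOG216635, on scaffold KZ149807.1 from 1412528 to 1413840. It had 1761, 2159 and 1720 FPKM in siHDAC3 replicates 1, 2 and 3, against 1870, 1868 and 2470 FPKM in siNC replicates 1, 2 and 3. HaOG210479 (KZ149833.1, 1309377 to 1310373) had 1768, 1886 and 1566 FPKM in siHDAC3 and 2191, 1781 and 2325 FPKM in siNC. In both genes the groups overlapped, siNC replicate 3 was highest and siHDAC3 replicate 3 was lowest.

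HaOG204156 (KZ149946.1, 564140 to 565603) had 1892, 2135 and 1523 FPKM in siHDAC3 and 1723, 1960 and 2272 FPKM in siNC. HaOG209936 (KZ150120.1, 307200 to 307532) had 1571, 2050 and 1677 FPKM in siHDAC3 and 2152, 1796 and 2187 FPKM in siNC. These genes also overlapped between groups and were highest in siNC replicate 3. HaOG215092 (KZ150495.1, 225 to 3600) had 1672, 1771 and 1564 FPKM in siHDAC3 and 1870, 1677 and 2282 FPKM in siNC. HaOG204972 (KZ149815.1, 415331 to 417964) had 1627, 1856 and 1519 FPKM in siHDAC3 and 1979, 1655 and 2161 FPKM in siNC. All 6 of the most abundant steady genes thus shared the same highest library.

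**Figure D1:**
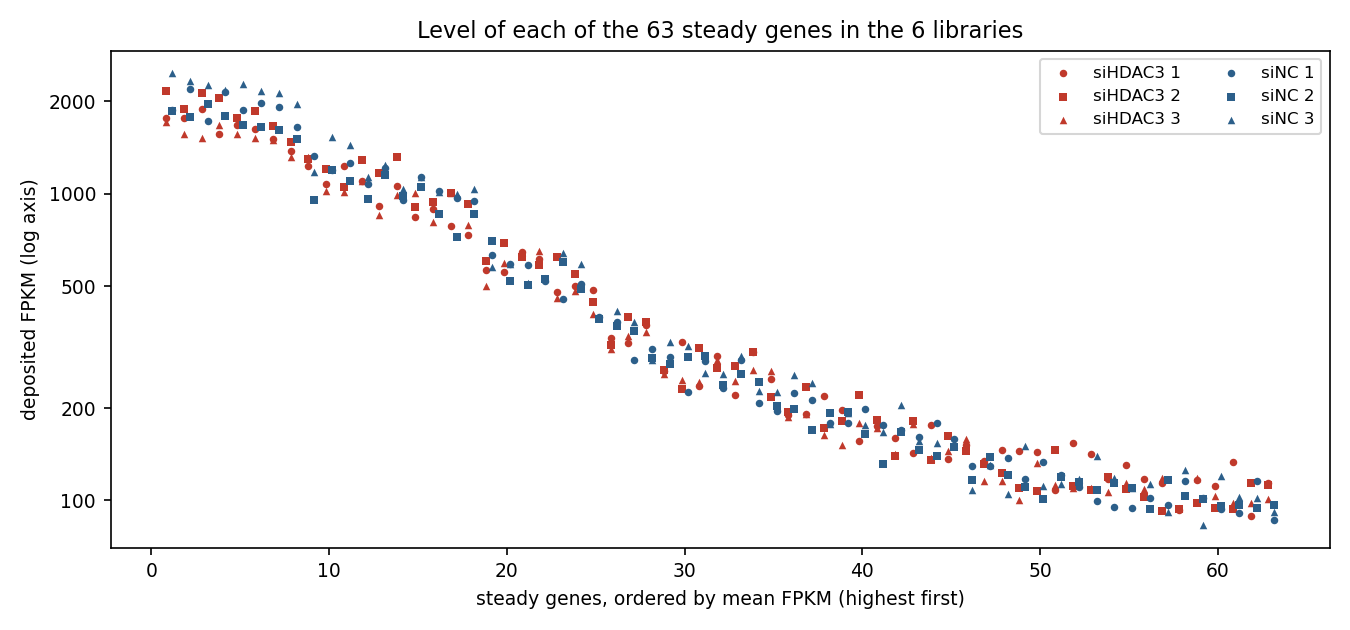
Deposited FPKM (log axis) of each of the 63 steady genes, ordered by mean level, with a point for each siHDAC3 library (red, left) and each siNC library (blue, right) of a gene. The 6 points of a gene lie within 1.5 times of each other throughout, while the gene means run from 1975 down to 100.3 FPKM.

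The smallest spread was that of HaOG212720 (KZ149845.1, 1372944 to 1374249). It had 136.7, 162.5 and 144.7 FPKM in siHDAC3 and 159.0, 148.9 and 152.5 FPKM in siNC, a highest over lowest ratio of 1.19. HaOG216763 (KZ149889.1, 807365 to 810476) had 134.8, 131.1 and 115.9 FPKM in siHDAC3 and 129.0, 138.2 and 130.7 FPKM in siNC, with a ratio of 1.19 as well. The siHDAC3 and siNC values of both genes overlapped. HaOG204404 (KZ149951.1, 380714 to 381169) had 500.1, 546.5 and 480.7 FPKM in siHDAC3 and 509.0, 490.0 and 591.1 FPKM in siNC, a ratio of 1.23. HaOG212172 (KZ149842.1, 894350 to 895602) had 486.2, 443.8 and 405.0 FPKM in siHDAC3 and 395.3, 391.0 and 393.7 FPKM in siNC, a ratio of 1.24. In HaOG212172, every siHDAC3 library lay above every siNC library although the spread was among the 4 smallest.

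At the limit of 1.5, HaOG216587 (KZ149807.1, 750112 to 756695) was the last gene inside. It had 144.5, 109.4 and 100.01 FPKM in siHDAC3 and 117.0, 110.2 and 150.01 FPKM in siNC, a ratio of 1.49992. HaOG201752, also just inside, had a ratio of 1.49. The first gene outside was HaOG208954 (KZ150090.1, 27665 to 28452), with 192.0, 203.5 and 228.6 FPKM in siHDAC3, 288.6, 239.6 and 204.3 FPKM in siNC and a ratio of 1.503. The next was HaOG212726 (KZ149845.1, 1406846 to 1408035), with 650.6, 644.8 and 607.6 FPKM in siHDAC3 and 432.4, 499.9 and 521.4 FPKM in siNC, and a ratio of 1.505. Genes inside and outside the limit thus formed one continuous range, and the limit marks no gap.

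Most abundant genes varied far more. The median highest over lowest ratio was 1.38 in the steady genes, against 4.50 in the 889 other annotated genes of at least 100 FPKM. Of all 952, 187 had a ratio from 1.5 to under 2, 394 from 2 to under 10, and 308 of 10 or more, including 61 genes listed at 0 in at least 1 library. The spread within each group already set most genes apart. Only 342 stayed under 1.5 among the siHDAC3 libraries, 428 among the siNC libraries and 219 in both. Of these 219, the siHDAC3 mean was at least 1.5 times the siNC mean in 21 and the siNC mean at least 1.5 times the siHDAC3 mean in 32. The other 166 had group means within 1.5 times of each other, and these hold the 63 steady genes.

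**Figure D2:**
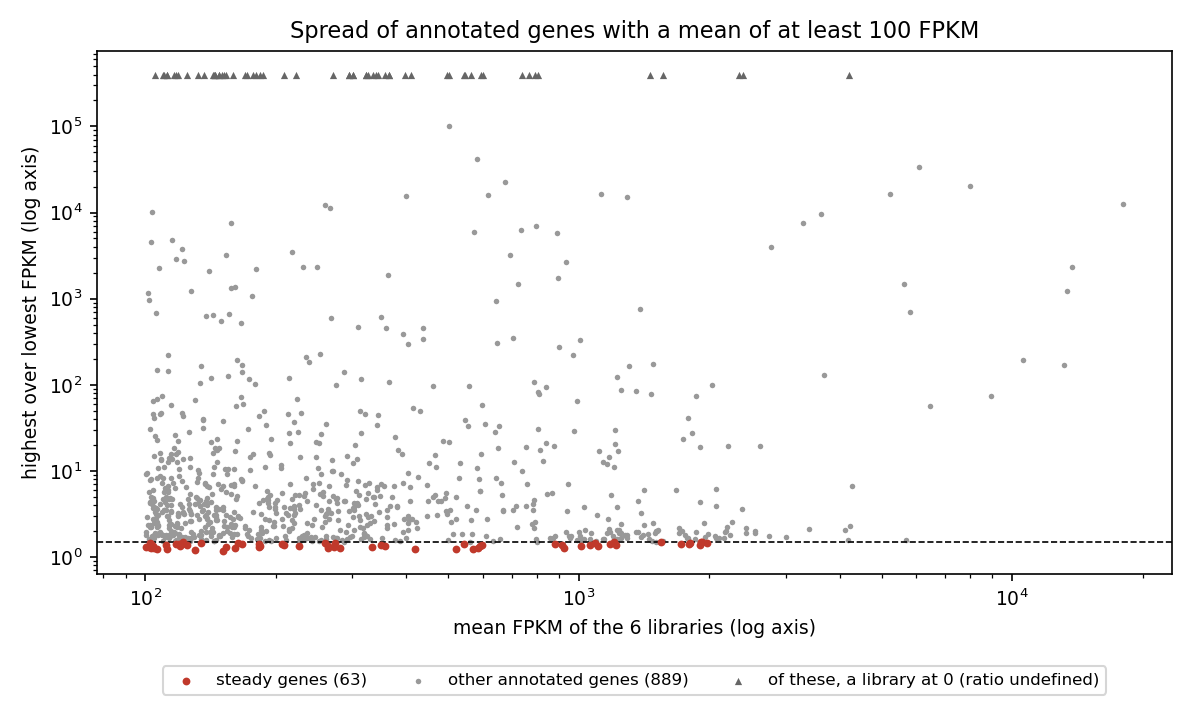
Highest over lowest FPKM of the 6 libraries (log axis) against mean FPKM (log axis) for the 952 annotated genes of at least 100 FPKM, with the 63 steady genes in red below the dashed limit of 1.5. Triangles in the top row are the 61 genes at 0 in a library, for which the ratio is undefined. Steady genes are seen up to 1975 FPKM, with gaps in between, below grey points that reach far higher ratios.

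The share of steady genes depended on the level. Among the 148 annotated genes of 1000 FPKM or more, 15 (10.1%) were steady, and the median ratio of all 148 was 2.07. Among the 243 genes from 300 to 1000 FPKM, 13 (5.35%) were steady and the median ratio was 5.37. Among the 561 genes from 100 to 300 FPKM, 35 (6.24%) were steady and the median ratio was 3.97. Below the limit on the mean, the same ratio of under 1.5 was met by 8.36% of 1591 genes from 30 to 100 FPKM, 6.80% of 2398 from 10 to 30, 3.19% of 2794 from 3 to 10 and 1.01% of 2077 from 1 to 3. Counting error grows toward the low end of this range, and its part in the falling share was not tested. The classes of level were chosen after the values had been seen.

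Although the steady genes moved little, those of 1000 FPKM or more moved together. Of these 15, siNC replicate 3 was the highest library in 12 and siHDAC3 replicate 3 the lowest in 10. Relative to a gene's own mean, their median level was 0.904, 1.03 and 0.866 in siHDAC3 replicates 1, 2 and 3, against 1.07, 0.935 and 1.20 in siNC replicates 1, 2 and 3. The median log2 change of siHDAC3 minus siNC was -0.21, and 12 of the 15 were below 0. The 35 steady genes from 100 to 300 FPKM showed another order. Their median relative level was 1.09, 0.982 and 0.952 in siHDAC3 and 0.991, 0.960 and 0.998 in siNC. Here siHDAC3 replicate 1 was the highest library in 13, siNC replicate 3 in 8, and 21 of 35 log2 changes were above 0. Of the 13 steady genes from 300 to 1000 FPKM, siNC replicate 3 and siHDAC3 replicate 2 were each highest in 4. In that class siHDAC3 replicate 3 and siNC replicate 2 were each lowest in 4, and the median log2 change was 0.06. In the most abundant class the groups overlapped, with siHDAC3 replicate 2 above siNC replicate 2.

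A like profile was seen beyond the limit. Another 52 annotated genes of 1000 FPKM or more had a ratio from 1.5 to under 2. Their median relative level was 0.856, 0.981 and 0.757 in siHDAC3 and 1.12, 0.984 and 1.27 in siNC. Of the 52, siNC replicate 3 was highest in 43 and siHDAC3 replicate 3 lowest in 44. The 15 most abundant steady genes thus shared their highest and their lowest library with most of these more variable genes. The median length was 704 bases for the 15 and 683 bases for the 52, beside 768 bases for all 148 annotated genes of 1000 FPKM or more. The points share libraries and their scaling, and no test was made of this likeness.

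**Figure D3:**
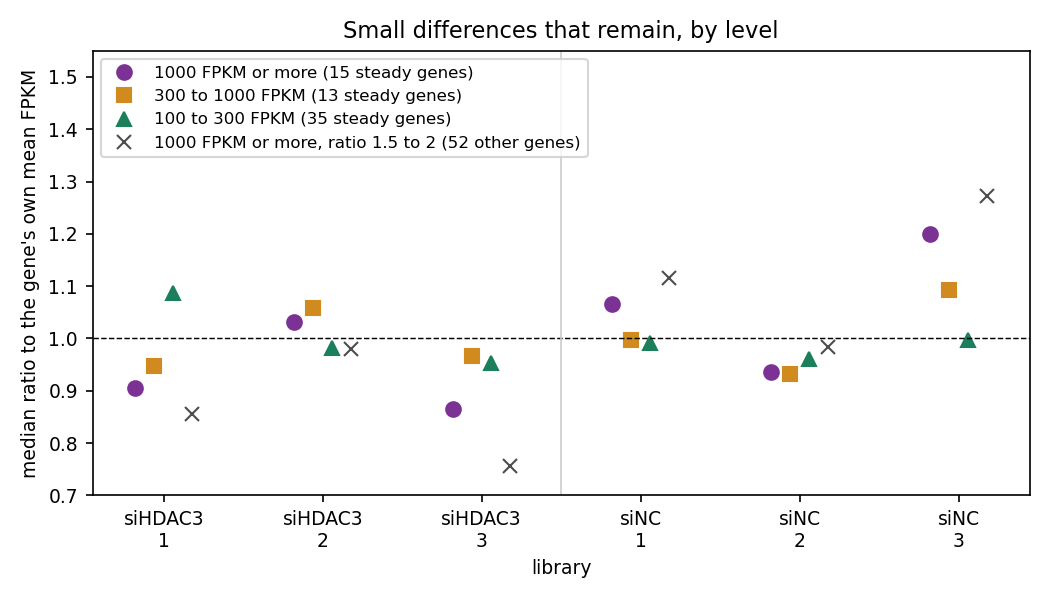
Median over genes of the level relative to the gene's own mean FPKM, in each siHDAC3 library (left) and each siNC library (right), for steady genes of 3 classes of level and for 52 other genes just beyond the limit. In the most abundant class siNC 3 is highest at 1.20 and siHDAC3 3 lowest at 0.866, and the 52 other genes have the same highest and lowest library, at 1.27 and 0.757.

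Between the groups, the log2 changes of the steady genes on log2(FPKM + 1) ranged from -0.31 to 0.36, with a median of -0.01 beside -0.02 over all 11093 genes tested. Of the 63, 31 were above 0 and 32 below. By limma across all tested genes with Benjamini-Hochberg adjustment, 0 of the 63 were called higher and 0 lower in siHDAC3 at an adjusted p under 0.05, where 4.04% of all tested genes were called higher and 11.1% lower. The number with an unadjusted p under 0.05 was also 0, and limma voom on the fragments called 0. The limit on the ratio used the same contrast, so these counts say nothing beyond the choice of genes. Among the 889 other abundant genes, 6.43% of the 887 tested were called higher and 32.6% lower.

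Some steady genes differed slightly but without overlap. In 8 of the 63 every siHDAC3 library lay above every siNC library, and in 7 every one lay below, while 16.5% of all tested genes had siHDAC3 entirely above and 21.6% entirely below. The siHDAC3 mean was 1.13 to 1.29 times the siNC mean in the 8 and 0.813 to 0.876 times in the 7. HaOG216112 (KZ149880.1, 18605 to 21820) had 305.2, 303.6 and 266.0 FPKM in siHDAC3 and 207.7, 244.0 and 227.0 FPKM in siNC. Its mean was 291.6 ± 22.2 FPKM in siHDAC3 and 226.2 ± 18.2 FPKM in siNC (SD, n = 3 each), a ratio of 1.29 and the largest change among the steady genes, with a log2 change of 0.36 (standard error 0.18). HaOG211808 (KZ150213.1, 107858 to 109923) had 151.0, 145.0 and 158.0 FPKM in siHDAC3 and 129.0, 116.6 and 107.8 FPKM in siNC, a ratio of means of 1.28. These were the 2 largest differences upward among genes without overlap.

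Downward, HaOG201752 (KZ149799.1, 3836016 to 3838572) had 1382, 1470 and 1314 FPKM in siHDAC3 and 1651, 1510 and 1963 FPKM in siNC. Its mean was 1389 ± 78.1 FPKM in siHDAC3 and 1708 ± 231.8 FPKM in siNC (SD, n = 3 each), a ratio of 0.813. HaOG212656 (KZ149845.1, 548762 to 549518) had 159.5, 139.9 and 141.6 FPKM in siHDAC3 and 169.1, 167.6 and 205.2 FPKM in siNC, a ratio of 0.814. The groups stood apart in these genes by less than the distance between the siNC libraries themselves. The lowest adjusted p over all 63 genes was 0.233 from limma.

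The steadiness holds for the scale the authors gave the table. Fragments were worked out from FPKM and gene length, and the divisor behind each library was 16787200, 11829400 and 14442500 fragments in siHDAC3 and 7751250, 9717220 and 8102820 in siNC. The divisor was not the number of fragments on genes, which was 10442400, 10811323 and 10084667 in siHDAC3 and 11565408, 11970426 and 12389053 in siNC. It lay above that number in every siHDAC3 library and below it in every siNC library. The summed FPKM of a library was 510285 ± 76851 in siHDAC3 and 958337 ± 133013 in siNC (SD, n = 3 each), a ratio of 0.532. Genes called lower in siHDAC3 by limma held 6.33% ± 0.403 of the summed FPKM in siHDAC3 and 45.2% ± 2.28 in siNC (SD, n = 3 each). The difference in the summed FPKM of these called genes made up 89.8% of the difference in the sum over all rows. These genes were called in the same libraries for being lower, so that share is a description and carries no test. Rows not called higher or lower summed to 435442 ± 75980 FPKM in siHDAC3 and 512992 ± 52985 in siNC (SD, n = 3 each). The steady genes themselves summed to 33823, 37016 and 32496 FPKM in siHDAC3 and to 36654, 33851 and 40286 FPKM in siNC, and these values overlapped.

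As a share of each library, which no scaling between libraries changes, the steady genes did not overlap. They held 7.66%, 6.24% and 6.55% of the summed FPKM in siHDAC3 and 3.56%, 4.21% and 3.87% in siNC. The mean share was 6.82% ± 0.745 in siHDAC3 and 3.88% ± 0.321 in siNC (SD, n = 3 each), a ratio of 1.76. Counted in fragments, they held 4.85%, 3.66% and 4.25% in siHDAC3 and 2.19%, 2.42% and 2.33% in siNC. A measure added after the data had been seen left all genes called higher or lower out of the sum. The share was then 9.21%, 7.16% and 7.70% in siHDAC3 and 6.77%, 7.49% and 7.38% in siNC, and the groups overlapped. The called genes were chosen on the same contrast, so leaving them out draws the sums together and the overlap is no test.

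**Figure D4:**
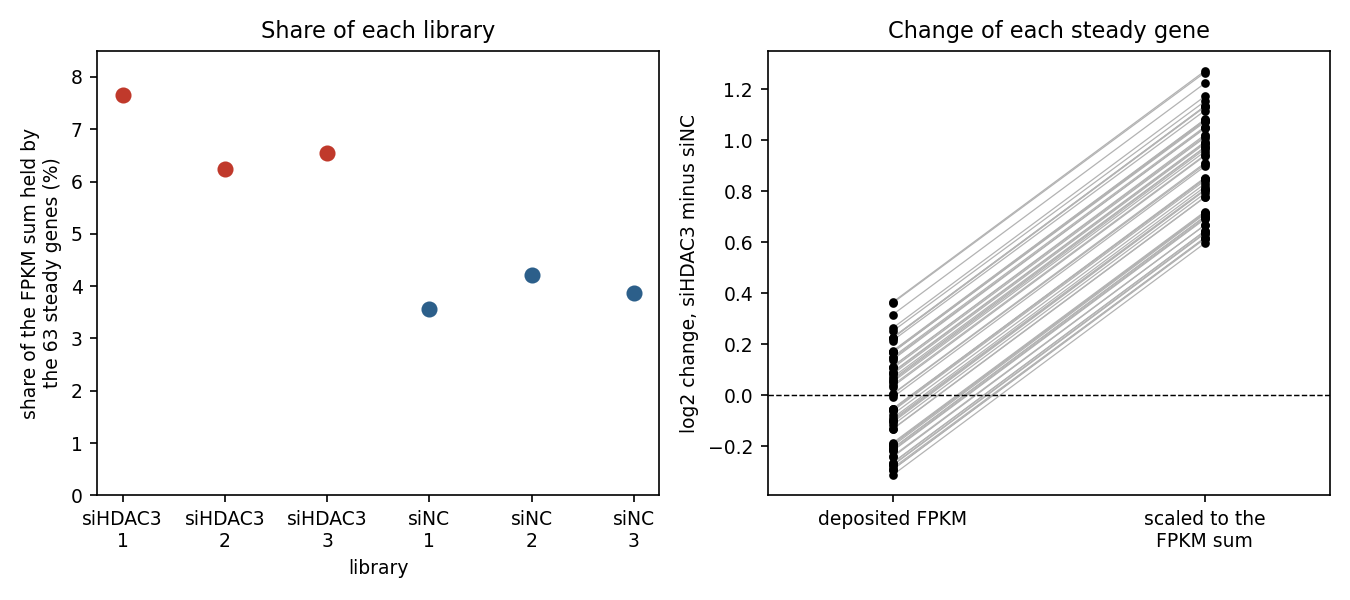
Left, share of the summed FPKM of each library held by the 63 steady genes, from 6.24% to 7.66% in siHDAC3 (red) and from 3.56% to 4.21% in siNC (blue). Right, log2 change of each steady gene (siHDAC3 minus siNC) in the deposited FPKM and after scaling each library to its own FPKM sum, with a line per gene, where the median of -0.01 becomes 0.90.

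After scaling each library to its own FPKM sum, all 63 steady genes were higher in every siHDAC3 library than in every siNC library, where 43.6% of all tested genes were entirely higher and 11.3% entirely lower. Their siHDAC3 means were then 1.51 to 2.42 times the siNC means, with a median of 1.87, and the median log2 change was 0.90 beside 0.68 over all tested genes. HaOG216635 had 2928, 2672 and 2547 scaled FPKM in siHDAC3 and 1335, 1704 and 1742 in siNC. HaOG212720, the gene with the smallest spread as deposited, had 227.3, 201.1 and 214.4 scaled FPKM in siHDAC3 and 113.5, 135.8 and 107.5 in siNC. By limma on these values, 57 of the 63 were called higher and 0 lower, while 25.9% of all tested genes were called higher and 8.31% lower. These counts come from the same contrast as the choice of genes and are given as a description. Their highest over lowest ratio now ran from 1.70 to 3.42, so none of the 63 met the limit of 1.5.

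The limits applied to the sum-scaled values chose 7 annotated genes, and 0 of these were among the 63, which is 0% of either list. As deposited, the 7 had ratios from 1.64 to 3.30, and their log2 changes were between -1.27 and -0.53. HaOG214271 (KZ149804.1, 190033 to 217805) was the steadiest of them, and it and the other gene named next were chosen after their values had been seen. It had 91.1, 118.1 and 113.8 scaled FPKM in siHDAC3 and 116.3, 109.7 and 114.9 in siNC, while its deposited values were 54.8, 95.4 and 76.9 FPKM in siHDAC3 and 163.0, 120.3 and 163.0 FPKM in siNC. The most abundant, HaOG212515 (KZ149844.1, 1361954 to 1364981), had 2783, 2605 and 2050 scaled FPKM in siHDAC3 and 2065, 1857 and 2201 in siNC. The 2 scales therefore name different genes as steady, and these data alone do not set one scale above the other.

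The rank of a gene within its library needs no scale at all. The steady genes were chosen on the same values, so their ranks are a description and carry no test. Among annotated genes, with rank 1 for the highest FPKM, the median rank of the steady genes was 271, 332 and 321 in siHDAC3 and 584, 395 and 481 in siNC. By the median over libraries, all 63 stood nearer the top in siHDAC3. In 59 of 63 every siHDAC3 rank was nearer the top than every siNC rank, while 27.7% of the 10426 tested annotated genes and 32.3% of the other abundant genes showed this. The opposite was seen in none of the 63, in 16.2% of the tested annotated genes and in 33.2% of the other abundant genes. HaOG216635 ranked 22, 27 and 26 in siHDAC3 and 100, 67 and 69 in siNC. HaOG212720 ranked 515, 500 and 511 in siHDAC3 and 786, 610 and 730 in siNC.

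Gene length was not a limit of its own, but FPKM divides by it, so length enters the limit on the mean. The other abundant genes met that limit as well, while the tested annotated genes did not have to. The steady genes had a median length of 768 bases (quartiles 547.5 and 1161), the other abundant genes 1050 bases (quartiles 618 and 1756) and all tested annotated genes 1541.5 bases. Under 1000 bases were 45 of the 63 (71.4%), against 424 of the 889 (47.7%). Length also differed between classes of level. At 1000 FPKM or more the median was 704 bases in steady genes and 768 in all 148 annotated genes. It was 642 against 1071 bases from 300 to 1000 FPKM, and 880 against 1062 bases from 100 to 300 FPKM. The part of the level in the difference was not tested. The shortest were HaOG213293 (KZ149849.1, 785579 to 786338) with 252 bases and HaOG212656 with 264. HaOG213293 had 174.2, 183.5 and 172.6 FPKM in siHDAC3 and 176.6, 131.1 and 166.5 FPKM in siNC. Its groups overlapped, and siNC replicate 2 was lowest.

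The longest was HaOG215094 (KZ150495.1, 11173 to 19122) with 4158 bases. It had 785.8, 1009 and 1007 FPKM in siHDAC3 and 966.7, 725.0 and 999.6 FPKM in siNC, with the largest number of fragments among the steady genes, from 29291 to 60484 per library. HaOG214646 (KZ149861.1, 950354 to 969896), with 2964 bases, had 117.3, 102.4 and 109.1 FPKM in siHDAC3 and 101.6, 93.8 and 113.4 FPKM in siNC. Groups overlapped in both. The genomic span from first to last base had a median of 2442 bases in steady genes and 3237 in other abundant genes. In 10 of the 63 (15.9%) the span equalled the length, which means a model without introns, against 86 of the 889 (9.67%). No test was made of these differences in structure.

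**Figure D5:**
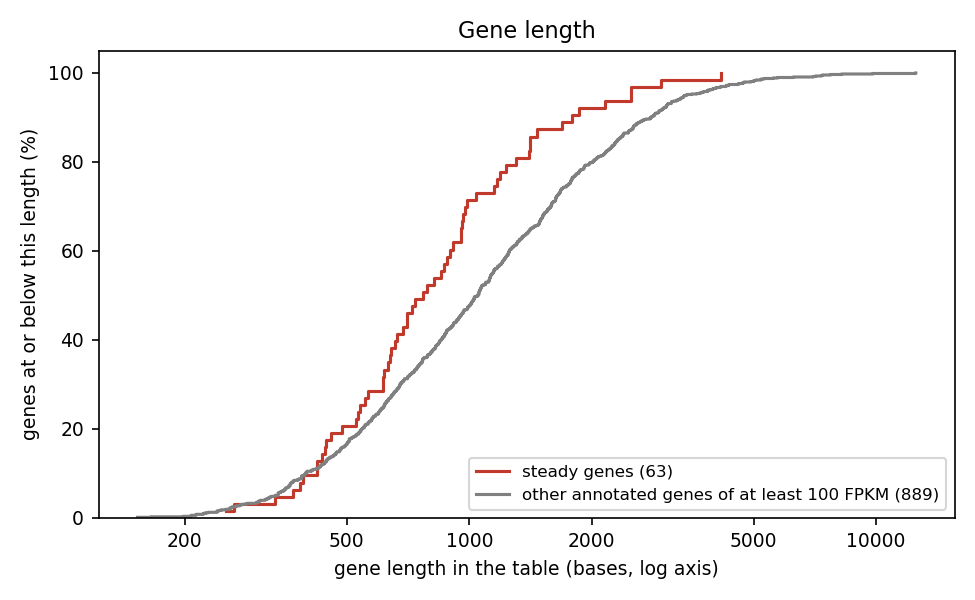
Share of genes at or below each gene length (bases, log axis) for the 63 steady genes (red) and the 889 other annotated genes of at least 100 FPKM (grey). The curve of the steady genes lies to the left over most of its course, with 71.4% of steady genes and 47.7% of the others under 1000 bases.

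The steady genes were spread over 50 scaffolds, with at most 3 on a scaffold, and 35 lay on the plus strand and 28 on the minus strand. Only 1 pair were direct neighbours, HaOG201752 and HaOG201753 (KZ149799.1, 3838714 to 3839904), on the same strand with 141 bases between them. HaOG201753 had 191.4, 234.7 and 191.2 FPKM in siHDAC3 and 212.9, 169.5 and 242.3 FPKM in siNC, a level far below that of its neighbour and with another order of libraries. Of the 120 other annotated genes that flank a steady gene, 14 reached 100 FPKM. Of the 94 that were tested, 1 was called higher and 6 lower in siHDAC3 by limma, together 7.45%, beside 15.1% of all tested genes, and their median highest over lowest ratio was 2.48. In 8 steady genes another annotated gene on the opposite strand overlapped the same bases. Its mean was at most 33.7 FPKM. The spans of a pair, introns included, shared from 3 to 1004 bases. No source used here says whether the counting used the strand, so reads from the shared bases cannot be assigned to 1 gene of the pair. Of the 1121 transcripts outside the annotation, 18 reached 100 FPKM and 0 met the limit of 1.5.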

How the data were processed

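RNA-seq of whole larvae gave 6 libraries, grouped by the sample labels. The authors deposited FPKM per gene and library with gene length and scaffold position, not pooled over replicates. The submitters' processing notes list Bowtie 0.12.2 and the mouse builds mm8 and mm9, which are not builds of these moth scaffolds. The tool that counted fragments and the build behind the table were not given in the sources used here. Multiplied by length and divided by 1 step per library, FPKM values came out as whole fragments, within 0.1, for all values above 0. Over the 10343 genes above 0 in all libraries, the median ratio to the geometric mean was between 1.01 and 1.02 in every library, so the deposited scale is close to a median-of-ratios scale.

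The test covered the 11093 genes that reached 0.5 FPKM in 3 or more libraries, among them all 63 steady genes. The limma package (version 3.58.1, R 4.3.3) was used on log2(FPKM + 1) with its variance trend option, p-values were adjusted by Benjamini-Hochberg over these genes, and p-values measure only the spread between these libraries. The code was checked on simulated data with known changes. The steady genes and all lists were chosen with earlier results of these data known. Named genes were the 6 most abundant, the 4 least variable, 2 on each side of the limit, the 2 most changed in each direction without overlap, the 2 longest and 2 shortest, and direct neighbours. Gene families were not counted, since 1 of 18203 identifiers and no steady gene matched the reference table (assembly ASM3070526v1). Alternatives were other scalings, limits, pseudocounts, filters and variance models, voom, the replicate number as a block and each library left out.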

Additional observations from a re-analysis of the deposited data

How the results depend on the processing

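The number of steady genes, 63, depended on the limits and the scale. It was 7 with each library scaled to its FPKM sum and 17 with quantile normalization, of which 0 and 1 were among the 63. It was 64 with median-of-ratios scaling, 62 of them shared, but that scale is close to the deposited one and could change little. It was 87 with each library scaled to the geometric mean of the steady genes, 61 shared, a scale added after the data had been seen. A ratio under 1.3 left 15 genes and a ratio under 2 gave 250. A mean of at least 50 FPKM gave 125 and of at least 200 FPKM left 37. With 1 library left out, which makes the ratio easier to meet, it was between 78 and 102, at 101 without siHDAC3 replicate 1, 99 without siHDAC3 replicate 3 and 102 without siNC replicate 3. At least 61 of the 63 were still chosen in each case. Leaving out a library cannot raise the ratio of a gene, so only the limit on the mean could drop one, and this retention is no test.

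The median log2 change of the steady genes, -0.01, became 0.90 with scaling to the sum and 0.69 with quantile normalization, where the median of all tested genes became 0.68 and 0.25. Of the 21 named genes, 14 changed sign under each of these scalings, and all 21 were then above 0. Without 1 library, the median of the steady genes was between -0.05 and 0.02. The steady genes called higher by limma numbered 57 with scaling to the sum and 16 with quantile normalization. They were 0 in each direction under every other alternative, also with any library left out. These other alternatives kept the deposited scale or one close to it. The share of the summed FPKM became 8.02% in siHDAC3 and 7.21% in siNC with called genes left out of the sum. These called genes came from the same contrast, so the change in share is a description.

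Of all tested genes, 448 were called higher and 1232 lower. Those higher numbered 2868 with scaling to the sum and 935 with quantile normalization. With 1 library left out, from 125 to 418 were higher and from 663 to 1089 lower, the fewest of each without siNC replicate 3. With the replicate number as a block, 177 were higher and 853 lower. Same-numbered libraries did not deviate together (correlations of -0.08, 0.07 and -0.01 for numbers 1, 2 and 3), and the block called 0 steady genes. With 3 libraries per group, these correlations cannot exclude that same-numbered libraries were handled together. The causes of these moves, other than the scale and the limits themselves, were not tested.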
